A study of Rattus norvegicus with 16 samples.

Results

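The nuclear genes of the mitochondrial respiratory chain and ATP synthase were followed in the right hippocampus of male Wistar rats after an iron infusion into the right amygdala. Members were the genes whose rat symbol starts with Nduf, Sdh (a to d), Uqcr, Cox4 to Cox8 or Atp5 and whose RefSeq accession was printed for a probe of the array. The RefSeq gene table holds 227 symbols of that form, 118 of them protein-coding. Of these, 69 genes were matched by a probe, and 67 were kept because, in at least 1 group, each of the 4 arrays marked a probe as well above background. The 67 stand among 26565 features tested. They comprised 31 genes of complex I, 3 of complex II, 5 of complex III, 13 of complex IV and 15 of complex V. Each of the 67 was well above background on all 16 arrays. Cox8c was well above background on 0 of 16 arrays, and Uqcrq on 1 control array, 2 arrays each at Fe day 5 and Fe day 15 and 1 at Fe day 30, so neither was kept. No probe was matched to Sdhb, Ndufa4 or a subunit encoded by mitochondrial DNA, and these were not analysed here.

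Each group held 4 rats, with 1 array for each rat. Surgery took place at 5 weeks of age, and 1.0 µl was infused 5 days later. Control rats received saline at pH 2.2 and were collected on day 15. The Fe rats received 100 mM FeCl3 in saline at the same pH and were collected on day 5, 15 or 30, which the labels call acute, sub-chronic and chronic. Ferric chloride in the amygdala is used in rats to model epilepsy that follows brain trauma. The hippocampus is not the infused structure. Fe day 5 and Fe day 30 rats were also older or younger than the controls and further from or nearer to the infusion, and these cannot be told apart from iron there. On the glass slides, every control array lay at position 1 and every Fe day 15 array at position 2. The Fe day 30 arrays lay at position 2 or 4, and the Fe day 5 arrays at position 1 or 2. Position and iron therefore cannot be told apart in the comparisons of Fe day 15 and Fe day 30 with control. Each member's level was the log2 processed signal minus the 75th percentile of its array, so 0 is that percentile and a value sets arrays, not genes, against one another.

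The respiratory chain passes electrons from NADH (complex I) and succinate (complex II) through ubiquinone, complex III and cytochrome c to oxygen at complex IV, and the proton gradient built on the way drives ATP synthesis at complex V. Neurons spend much of their ATP on restoring ion gradients after firing. Most subunits are encoded in the nucleus, and their promoters are known for binding sites of the factors Nrf1, GABP (an ETS factor) and Yy1. Complex IV also has tissue isoforms: Cox6a2 and Cox8b are the heart and muscle forms of subunits whose widespread forms are Cox6a1 and Cox8a, Cox6b2 is a testis form, and Cox4i2 is a lung form induced by low oxygen.

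Promoter windows were taken from RefSeq on the assembly GRCr8 for 60 of the 67 members, each reaching from 250 bases before to 50 bases after the gene's start. Both strands were searched for 4 short motifs, each counted on its own, so that a window could hold several. The Nrf1 motif GCGCANGCG was found in 16 members' windows (26.67%), against 5.796% of all 33469 windows in the table and 7.62% of the 21842 windows of protein-coding genes. The ETS motif CCGGAAG was found in 18 (30.0%, against 8.745% and 10.74%) and the Yy1 motif AAGATGGC in 10 (16.67%, against 3.173% and 3.68%). At least 1 of these motifs was held by 36 members (60.0%), against 15.704% of all windows. The TATA motif TATAAA was found in 4 members (6.67%, against 14.222% and 13.02%). Among the 250 bases before the start alone, the Yy1 motif was in 2 members and the Nrf1 and ETS motifs in 14 and 17, so most of the Yy1 matches reached into the 50 bases after the start. Of the 10 complex IV windows, 1 held the Nrf1 motif and 4 the ETS motif. A match is a description of the letters and does not show binding.

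The 250 bases before the start are shown for 6 members, 5′ to 3′ on the strand of the gene, with motif matches in capitals. Ndufaf4 and Cox5a are among the members with the lowest p-values after iron. Sdha and Uqcrc2 are core subunits with repeated Nrf1 and ETS matches, and Cox8a and Cox8b are the widespread and muscle forms of the same subunit. On GRCr8 the windows lie at chr5:43401545-43401794 on the plus strand (Ndufaf4), chr8:66818034-66818283 on the plus strand (Cox5a), chr1:30764303-30764552 on the plus strand (Sdha), chr1:184598990-184599239 on the plus strand (Uqcrc2), chr1:213833624-213833873 on the minus strand (Cox8a) and chr1:205408274-205408523 on the minus strand (Cox8b).
Ndufaf4: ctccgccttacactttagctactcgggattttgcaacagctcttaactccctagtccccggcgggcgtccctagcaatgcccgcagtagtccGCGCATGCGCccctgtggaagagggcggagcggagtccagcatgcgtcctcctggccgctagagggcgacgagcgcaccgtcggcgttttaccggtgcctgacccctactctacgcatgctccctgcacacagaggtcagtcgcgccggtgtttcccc
Cox5a: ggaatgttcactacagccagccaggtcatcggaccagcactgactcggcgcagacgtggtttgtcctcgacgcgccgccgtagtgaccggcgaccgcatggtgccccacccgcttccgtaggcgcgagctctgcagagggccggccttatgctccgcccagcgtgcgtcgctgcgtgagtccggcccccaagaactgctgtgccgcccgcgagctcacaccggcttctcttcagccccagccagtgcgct
Sdha: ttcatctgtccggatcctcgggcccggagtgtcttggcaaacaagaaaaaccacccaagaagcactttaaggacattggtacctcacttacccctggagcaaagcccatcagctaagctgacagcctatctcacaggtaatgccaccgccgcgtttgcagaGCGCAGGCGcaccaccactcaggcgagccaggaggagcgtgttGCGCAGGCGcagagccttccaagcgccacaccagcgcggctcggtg
Uqcrc2: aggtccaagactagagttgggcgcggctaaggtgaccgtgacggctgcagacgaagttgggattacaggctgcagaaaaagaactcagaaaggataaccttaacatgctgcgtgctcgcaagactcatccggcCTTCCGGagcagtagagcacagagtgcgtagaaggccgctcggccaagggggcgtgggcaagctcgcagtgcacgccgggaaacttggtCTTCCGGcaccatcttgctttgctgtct
Cox8a: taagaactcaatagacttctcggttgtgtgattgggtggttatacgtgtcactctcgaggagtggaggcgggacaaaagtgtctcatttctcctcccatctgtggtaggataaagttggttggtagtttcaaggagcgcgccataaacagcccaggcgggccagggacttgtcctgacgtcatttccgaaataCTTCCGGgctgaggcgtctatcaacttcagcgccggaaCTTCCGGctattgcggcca
Cox8b: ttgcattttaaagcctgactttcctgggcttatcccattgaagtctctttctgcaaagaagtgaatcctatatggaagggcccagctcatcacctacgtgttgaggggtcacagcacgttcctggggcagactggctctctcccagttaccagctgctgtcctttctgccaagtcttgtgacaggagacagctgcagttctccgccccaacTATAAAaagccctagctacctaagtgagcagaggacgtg
Ndufaf4 held 1 Nrf1 match, 158 bases before its start, and Sdha held 2, at 89 and 46 bases. Uqcrc2 held 2 ETS matches, at 117 and 28 bases, and Cox8a held 2, at 57 and 19 bases. Cox8b held the TATA motif 39 bases before its start and none of the other 3, and Cox5a held none of the 4.

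The arrays' 75th percentiles of signal ran from 553 to 924, and 74.2% to 81.6% of transcript spots were well above background. All 10 measured neuron markers and all 7 measured astrocyte markers were well above background on all 16 arrays, so the neural identity of the labelled tissue was present on each. Choroid plexus markers (9 of 14 measured, 7 well above background throughout, Kcnj13 and Clic6 below it on some arrays) and meningeal and fibroblast markers (12 of 13 measured) stood apart on 3 arrays. A list's score on an array is the median, over its genes, of the difference from each gene's control mean. The scores for choroid plexus and meninges were 1.78 and 4.45 on Fe day 5 replicate 2, 3.41 and 2.53 on Fe day 5 replicate 3, and 6.88 and 3.27 on Fe day 30 replicate 3. In the controls these scores lay between -0.37 and 0.22. The summed choroid plexus level, in multiples of the 75th percentile, ranged from 5.19 to 7.10 in the controls, 9.34 to 42.4 at Fe day 5, 6.45 to 9.06 at Fe day 15 and 5.04 to 373 at Fe day 30. Microglia markers (11 of 11 measured) scored highest on Fe day 15 replicate 4 (1.04) and Fe day 30 replicate 3 (0.89). Blood markers (4 of 6 measured, S100a8 below that mark on some arrays) scored 0.47 to 2.00 at Fe day 5 and 0.51 to 1.55 at Fe day 15. Both were above all controls (-0.31 to 0.26), and the scores at Fe day 30 were -0.40 to 1.82. The summed blood level overlapped the controls (1.15 to 1.58) at Fe day 5 (1.33 to 4.21) and Fe day 15 (1.41 to 4.01). Endothelial markers at Fe day 30 were higher for 10 of 10 genes, with 0 called by limma and 2 at an unadjusted p under 0.05. Ependymal markers were higher for 7 of 7, with 0 called and 0 at that level. Of all features, 7.77% were at that level at Fe day 30, and their median difference from control was -0.013. Scores of neuron markers lay between -0.22 and 0.14 on all arrays, with the lowest on Fe day 30 replicate 3. Oligodendrocyte markers (10 of 10 measured) scored -0.23 to 0.15 in the controls and -0.36 to 0.70 at Fe day 5. They scored -0.13 to 0.58 at Fe day 15 and -0.28 to 0.20 at Fe day 30. In these whole-tissue samples, fewer cells of a type and less RNA per cell cannot be told apart.

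No member passed the test at any Fe day against control. At an adjusted p under 0.05 (limma, Benjamini-Hochberg over all 26565 features) 0 members were called at Fe day 5, where 0% of all features were, 0 at Fe day 15, again against 0%, and 0 at Fe day 30, against 0.00753% (2 features). The F-test over the 4 groups called 0 members and 0% of features. At an unadjusted p under 0.05 there was 1 member at Fe day 5 (Ndufb8, lower), against 10.3% of all features. There were 0 at Fe day 15, against 11.5%, and 2 at Fe day 30 (Cox5a and Uqcr11, both lower), against 7.77%. The F-test had 0 members under that level, against 8.34% of features.

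The intervals bounded most members closely. The 95% interval of the difference from control lay within 1.3-fold either way for 62 of 67 members at Fe day 5, 63 at Fe day 15 and 61 at Fe day 30. It lay within 1.5-fold for 66, 66 and 65 members. Of all 26565 features, 11361, 10960 and 11749 lay within 1.3-fold and 18158, 18101 and 18412 within 1.5-fold. The median residual SD of a member was 0.091 on the log2 scale, against 0.19 over all features, so the members had a smaller spread between arrays. The features were not matched to the members in signal level. The exception past 1.5-fold at Fe day 5 and Fe day 15 was Cox8b, and at Fe day 30 Cox8b and Cox6b2.

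**Figure D1:**
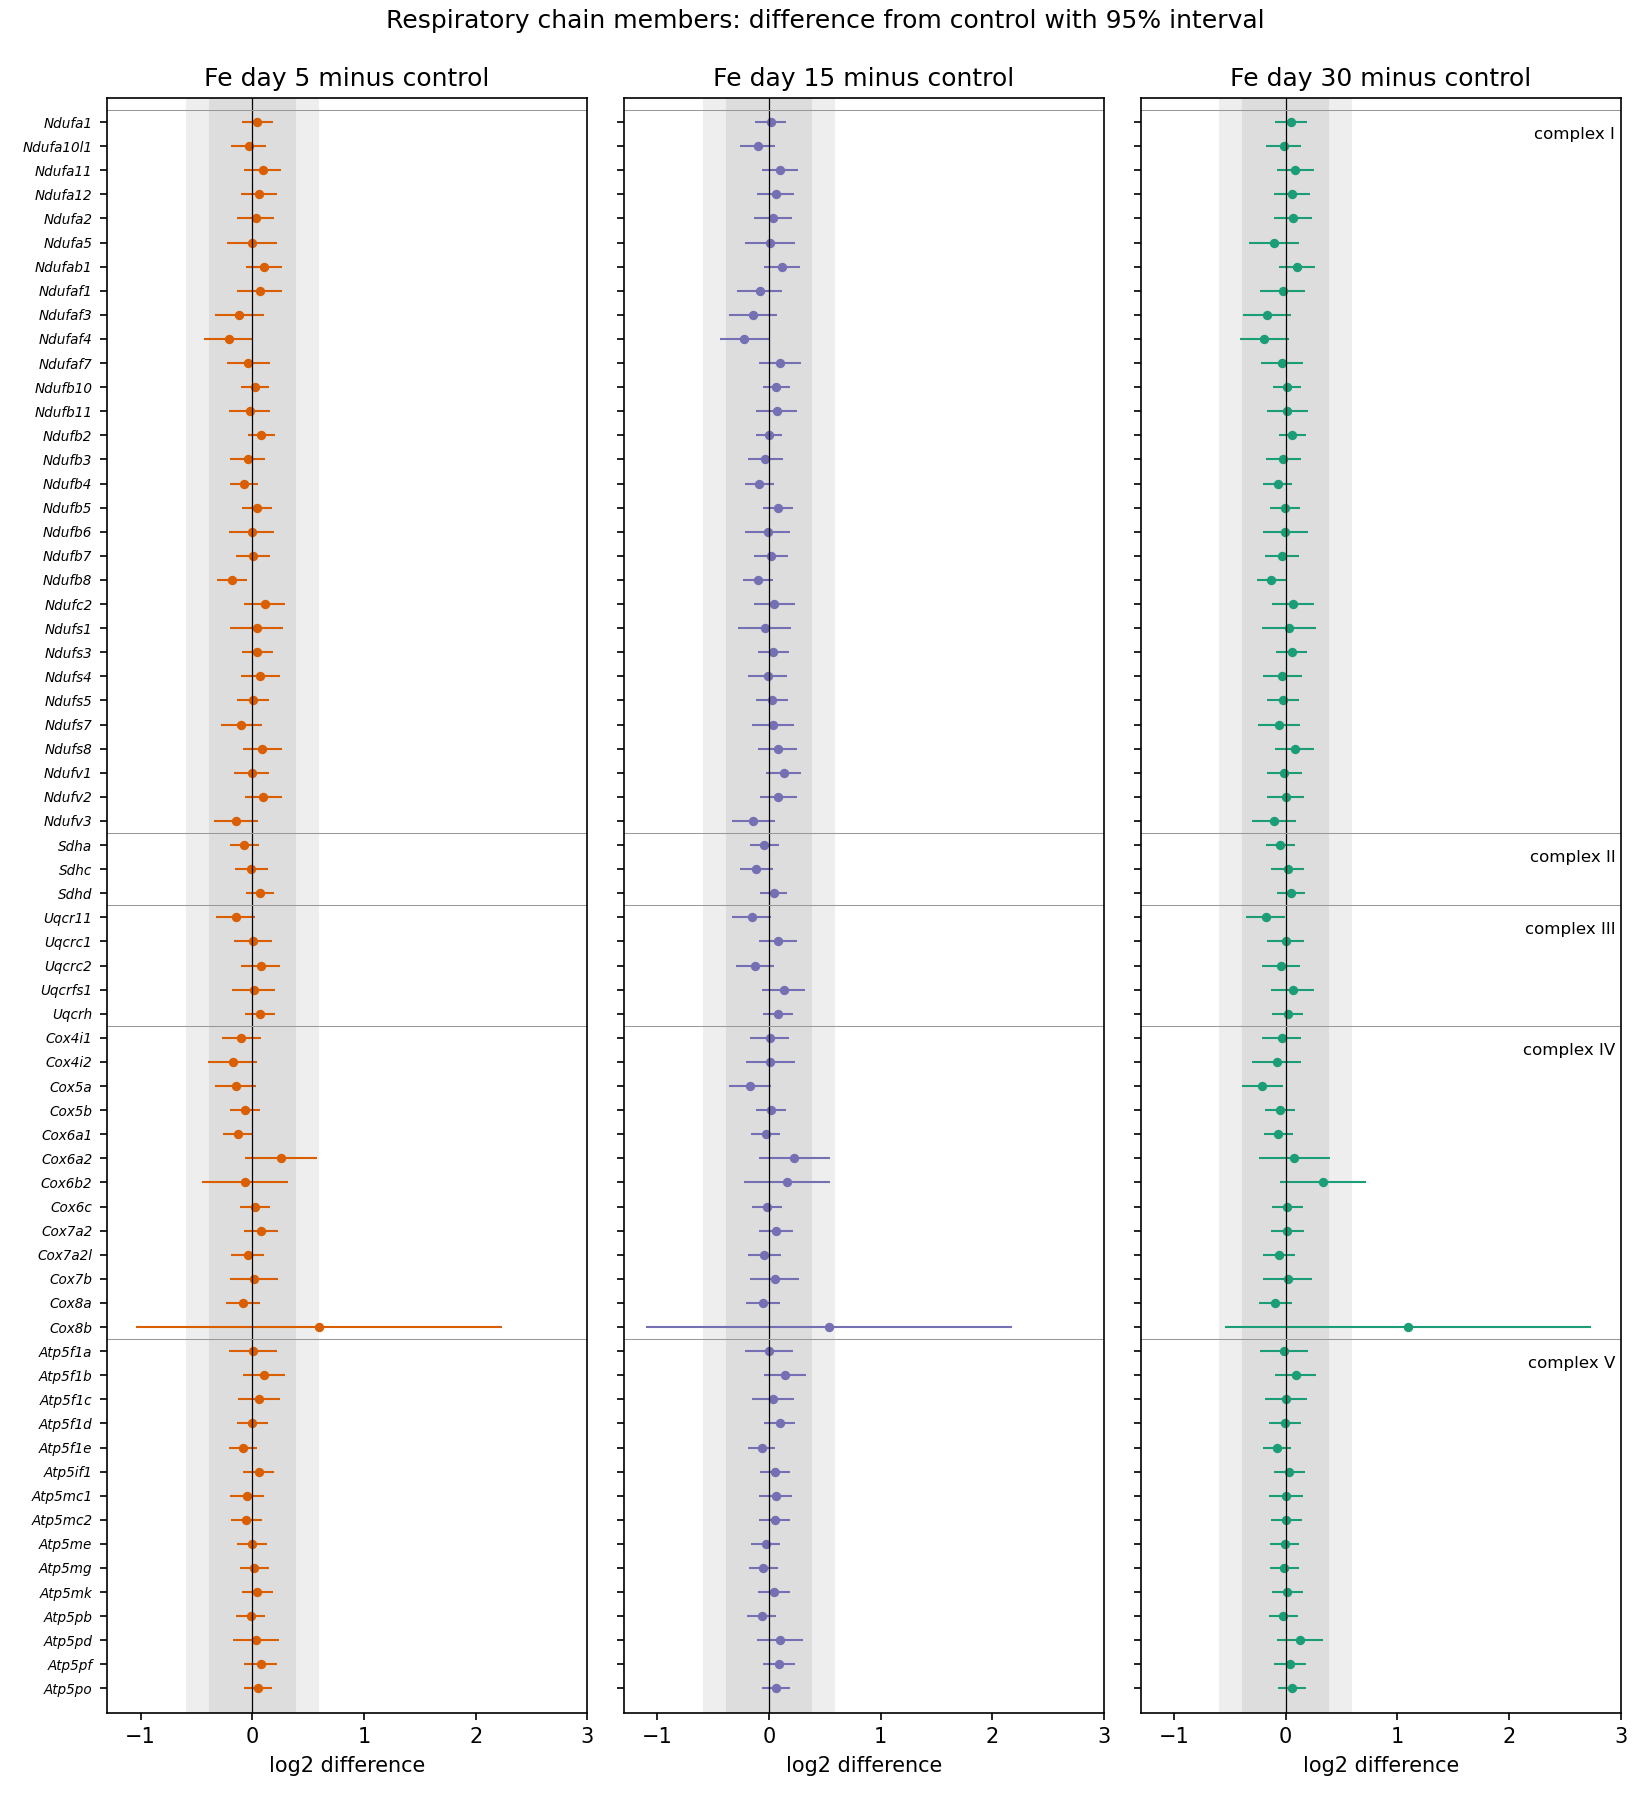
Log2 difference from control (horizontal axis) of 66 of the 67 members (rows, by complex) at Fe day 5, 15 and 30; points are limma estimates and lines 95% intervals, with dark and light bands marking 1.3-fold and 1.5-fold. All intervals except that of Cox8b, and that of Cox6b2 at Fe day 30, end inside the light band.

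The median log2 difference of the members was 0.0096 at Fe day 5 (38 higher, 29 lower), 0.036 at Fe day 15 (42 higher, 25 lower) and -0.0019 at Fe day 30 (33 higher, 34 lower). Over all features it was -0.017, 0.0014 and -0.013. By complex the medians at Fe day 5, 15 and 30 were 0.03, 0.03 and -0.0091 for complex I and -0.0084, -0.04 and 0.02 for complex II. They were 0.01, 0.08 and -0.0019 for complex III, -0.06, 0.01 and -0.04 for complex IV, and 0.02, 0.05 and 0.0049 for complex V. The 3 comparisons share the 4 control arrays.

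Complex I takes electrons from NADH. Its 7 core subunits, which carry the flavin and iron-sulfur centres, had medians of 0.05, 0.08 and 0.01, with all 7 intervals within 1.3-fold at each day. Ndufs1, the largest iron-sulfur subunit, ranged from 1.36 to 1.75 in the controls, 1.44 to 1.71 at Fe day 5, 1.37 to 1.65 at Fe day 15 and 1.44 to 1.86 at Fe day 30. Its groups overlapped throughout, and its differences from control were 0.04, -0.04 and 0.03 (SE 0.11).

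Ndufv1 carries the flavin that accepts electrons from NADH. Its control values were 3.07, 3.04, 2.99 and 2.97 and its Fe day 15 values 3.12, 3.22, 3.14 and 3.13, all above the controls. At Fe day 5 it lay at 3.16, 3.04, 2.82 and 3.04 and at Fe day 30 at 3.02, 2.89, 3.01 and 3.11, both overlapping the controls. The differences from control were -0.0043 at Fe day 5, 0.13 at Fe day 15 and -0.01 at Fe day 30 (SE 0.073), with adjusted p of 0.99, 0.50 and 0.97 by limma.

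Among the 20 accessory subunits of complex I, Ndufb8, a membrane-arm subunit often used on blots as a marker of assembled complex I, had the lowest p of all members at Fe day 5. Its control values were 7.39, 7.33, 7.28 and 7.25. It lay at 7.09, 7.03, 7.13 and 7.26 at Fe day 5, 7.22, 7.20, 7.20 and 7.22 at Fe day 15 and 7.16, 7.23, 7.10 and 7.22 at Fe day 30. The controls lay above all 8 values of Fe day 15 and Fe day 30, and 1 Fe day 5 array (replicate 4) overlapped them. The differences were -0.18, -0.10 and -0.13 (SE 0.062), with unadjusted p of 0.010, 0.14 and 0.057 and adjusted p of 0.47, 0.56 and 0.65 by limma. On 4 slides a control shared the glass with Fe arrays, which gave 6 pairs from 4 controls. These pairs are not independent, since 2 controls enter 2 pairs each, and every control lay at position 1 of its slide, so position and iron cannot be told apart within them. Ndufb8, which was chosen for its p on these same arrays, was lower on the Fe array in all 6 pairs, by 0.04 to 0.23. With quantile normalization the differences shrank to -0.02, -0.01 and -0.03.

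The 4 assembly factors (Ndufaf1, Ndufaf3, Ndufaf4 and Ndufaf7), which build complex I without staying in it, had medians of -0.07, -0.11 and -0.10. Ndufaf4 had the lowest p of all members at Fe day 15. It lay at 1.23, 1.26, 1.27 and 1.18 in the controls, 1.04, 0.75, 1.18 and 1.12 at Fe day 5, 1.05, 1.08, 1.11 and 0.81 at Fe day 15 and 1.01, 0.99, 0.91 and 1.26 at Fe day 30. The Fe day 15 values were all below the controls, while 1 array overlapped them at Fe day 5 and 1 at Fe day 30. The differences were -0.21, -0.22 and -0.19 (SE 0.10), with adjusted p of 0.48, 0.43 and 0.65 by limma. This is the brightest of 3 Ndufaf4 probes, with a control mean of 1.23. The others were much dimmer, at control means of -2.28 and -3.12. They gave -0.06, -0.04 and 0.0058, and -0.04, -0.07 and 0.08, so the lower level rests on 1 probe.

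Of the 7 members with several probes, Ndufc2, a further accessory subunit, also had probes that disagreed in size. The brighter probe gave 0.11, 0.05 and 0.06. The dimmer one ranged from -4.48 to -3.92 in the controls, -3.79 to -2.82 at Fe day 5, -4.17 to -3.26 at Fe day 15 and -4.17 to -2.78 at Fe day 30, with differences of 0.76, 0.26 and 0.69. Its Fe day 5 values lay above the controls, and this probe, not used for the member, was not tested. The probes of Cox5b differed in sign at Fe day 5 (-0.07 and 0.02) and Fe day 15 (0.02 and -0.02). Those of Ndufa10l1 differed in sign at Fe day 5 (-0.03, -0.0050 and 0.05) and Fe day 30 (-0.02, -0.04 and 0.0042), and those of Atp5mc2 at Fe day 30 (0.0062 and -0.0092).

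Complex II oxidises succinate and links the chain to the tricarboxylic acid cycle. Its flavoprotein Sdha lay between 5.35 and 5.50 in the controls, 5.26 and 5.47 at Fe day 5, 5.35 and 5.40 at Fe day 15 and 5.34 and 5.41 at Fe day 30. The groups overlapped, and the differences were -0.07, -0.04 and -0.05 (SE 0.061). The membrane anchor Sdhc lay at 2.62, 2.59, 2.56 and 2.70 in the controls and 2.51, 2.47, 2.48 and 2.57 at Fe day 15, where 1 array overlapped the controls. Its differences were -0.01, -0.11 and 0.02 (SE 0.069), with an adjusted p of 0.54 by limma at Fe day 15. The other anchor, Sdhd, gave 0.07, 0.04 and 0.05. All 3 members had intervals within 1.3-fold at each day.

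Complex III passes electrons from ubiquinol to cytochrome c. The Rieske iron-sulfur protein Uqcrfs1 had control values of 4.33, 4.10, 4.37 and 4.27 and Fe day 15 values of 4.46, 4.44, 4.35 and 4.34, which overlapped. Its differences from control were 0.01, 0.13 and 0.06 (SE 0.089). The core protein Uqcrc1 differed from control by 0.0086, 0.08 and -0.0019 (SE 0.079). The hinge protein Uqcrh, which helps dock cytochrome c, lay at 5.96, 5.94, 5.91 and 5.94 in the controls and 6.04, 6.02, 5.99 and 6.01 at Fe day 15, all above the controls, a difference of 0.08 (SE 0.064, adjusted p = 0.65 by limma).

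Uqcr11, a small accessory subunit of complex III, was among the lowest p-values at Fe day 15 and Fe day 30. It lay at 6.41, 6.46, 6.34 and 6.38 in the controls, 6.32, 6.15, 6.32 and 6.21 at Fe day 5, 6.13, 6.34, 6.40 and 6.10 at Fe day 15 and 6.33, 6.11, 6.15 and 6.29 at Fe day 30. The Fe day 5 and Fe day 30 values were all below the controls, and the Fe day 15 values overlapped them. The differences were -0.15, -0.16 and -0.18 (SE 0.082), with unadjusted p of 0.093, 0.078 and 0.047 and adjusted p of 0.51, 0.48 and 0.64 by limma. With quantile normalization they were -0.04, -0.12 and -0.10. Within slides Uqcr11 was lower on the Fe array in 4 of 6 pairs, by up to 0.33, and higher by 0.0032 and 0.02 in the others. Uqcr11 too was chosen for its p on these same arrays, so the pairs are not a separate test of it.

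Complex IV reduces oxygen to water. Cox5a, a subunit on the matrix side of the complex, had the lowest p of all members at Fe day 30. Its control values were 4.74, 4.73, 4.79 and 4.82. It lay at 4.53, 4.66, 4.46 and 4.85 at Fe day 5, 4.46, 4.50, 4.74 and 4.71 at Fe day 15 and 4.57, 4.59, 4.55 and 4.53 at Fe day 30. All 4 Fe day 30 values were below the controls, whereas the Fe day 5 and Fe day 15 groups each overlapped the control range. The differences were -0.15, -0.17 and -0.21 (SE 0.086), with unadjusted p of 0.11, 0.068 and 0.027 and adjusted p of 0.53, 0.46 and 0.63 by limma. Within slides Cox5a was lower on the Fe array in 5 of 6 pairs, by 0.08 to 0.29, and higher by 0.11 on Fe day 5 replicate 4. Cox5a too was chosen for its p on these same arrays, so the pairs are not a separate test of it.

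Cox4i1, the widespread form of the regulatory subunit, ranged from 4.50 to 4.60 in the controls, 4.32 to 4.62 at Fe day 5, 4.43 to 4.65 at Fe day 15 and 4.40 to 4.64 at Fe day 30. Its groups overlapped, with differences of -0.10, 0.0080 and -0.04 (SE 0.082). Cox6a1 lay at 7.83, 7.88, 7.73 and 7.83 in the controls and 7.78, 7.65, 7.62 and 7.72 at Fe day 5, a difference of -0.13 (SE 0.062, adjusted p = 0.48 by limma) with 1 Fe array inside the control range. Its differences at Fe day 15 and Fe day 30 were -0.03 and -0.07. Its sign at Fe day 5 turned with quantile normalization (0.06) and with normexp background (0.08).

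**Figure D2:**
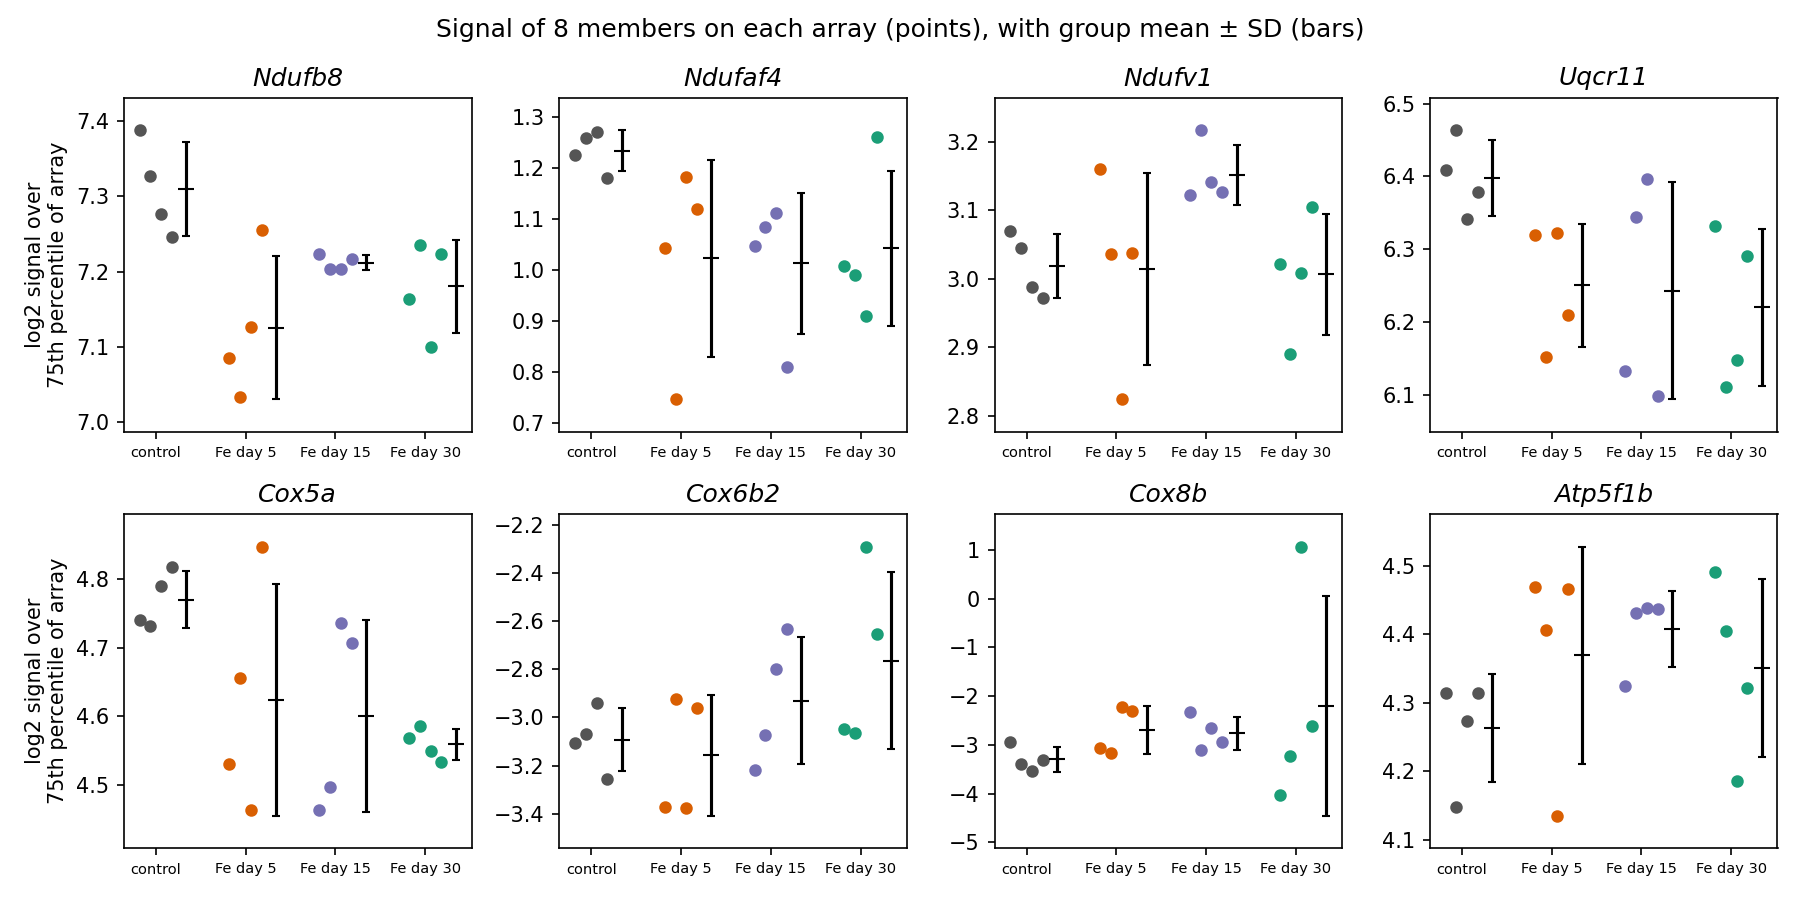
Log2 signal relative to the array's 75th percentile (vertical axis, scaled to each gene) of 8 members on every array of the 4 groups, with the group mean ± SD beside the points. Ndufb8 at Fe day 15 and Cox5a at Fe day 30 lie below all controls, Ndufv1 and Atp5f1b at Fe day 15 lie above them, and 1 Fe day 30 array stands apart in Cox8b at 1.07.

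Among the tissue isoforms of complex IV, Cox8b, Cox6b2 and Cox6a2 had the widest spread of all members (residual SD 1.17, 0.27 and 0.22). Cox4i2 did not, at 0.14 against 0.16 for Ndufs1. Cox8b, Cox6b2 and Cox6a2 were also dim, with control means of -3.29, -3.09 and -1.85. The assembly factor Ndufaf1, with a control mean of -2.05, had a residual SD of 0.13. The part of low signal in the spread was not tested. Cox8b, the muscle form of a small subunit, lay at -2.94, -3.39, -3.53 and -3.32 in the controls and -3.07, -3.17, -2.23 and -2.30 at Fe day 5. It lay at -2.33, -3.10, -2.66 and -2.94 at Fe day 15 and -4.02, -3.23, 1.07 and -2.61 at Fe day 30. The single value of 1.07 (Fe day 30 replicate 3) was 4.46 above the control on the same slide. The differences were 0.60, 0.54 and 1.10 (SE 0.77), with adjusted p of 0.79, 0.83 and 0.71 by limma. The SD was 0.25 in the controls, 0.50 at Fe day 5, 0.34 at Fe day 15 and 2.25 at Fe day 30. All groups share the residual SD, so the SE at Fe day 5 and Fe day 15 also holds the spread of Fe day 30. Without that array the Fe day 30 difference was 0.0066. That array also had the highest choroid plexus score (6.88) and a meningeal score of 3.27; the part of those cells in the Cox8b value was not tested. On the other two arrays rich in such markers, Fe day 5 replicates 2 and 3, Cox8b lay inside the control range at -3.17 and above it at -2.23.

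Cox6b2, the testis form, was also highest on Fe day 30 replicate 3. It lay at -3.11, -3.07, -2.94 and -3.26 in the controls, -3.37, -2.92, -3.38 and -2.96 at Fe day 5, -3.22, -3.07, -2.80 and -2.63 at Fe day 15 and -3.05, -3.06, -2.29 and -2.65 at Fe day 30. Its difference at Fe day 30 was 0.33 (SE 0.18, adjusted p = 0.65 by limma), with the groups overlapping. Cox6a2, the heart and muscle form, lay at -1.89, -2.02, -1.89 and -1.59 in the controls and -1.59, -1.50, -1.53 and -1.74 at Fe day 5, where 2 arrays lay inside the control range. Its differences were 0.26, 0.23 and 0.08 (SE 0.15). Cox4i2, the form induced by low oxygen, gave -0.17, 0.01 and -0.08 (SE 0.10), with ranges of -0.40 to -0.09 in the controls, -0.66 to -0.22 at Fe day 5, -0.39 to -0.15 at Fe day 15 and -0.45 to -0.25 at Fe day 30, which overlapped.

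Complex V makes ATP in its F1 head, turned by a rotor in the membrane. Of the 5 head subunits, the catalytic Atp5f1b lay at 4.31, 4.15, 4.27 and 4.31 in the controls, 4.47, 4.41, 4.14 and 4.47 at Fe day 5, 4.32, 4.43, 4.44 and 4.44 at Fe day 15 and 4.49, 4.40, 4.19 and 4.32 at Fe day 30. The Fe day 15 values were above the controls, the lowest of them narrowly, and the other groups overlapped them. The differences were 0.11, 0.14 and 0.09 (SE 0.087), with adjusted p of 0.65, 0.53 and 0.79 by limma. Atp5f1a, its structural partner in the head, differed by 0.0059, 0.00 and -0.01 (SE 0.10), and its interval at Fe day 15 ran from -0.21 to 0.21. The stalk subunit Atp5f1d gave 0.0017, 0.10 and -0.0060 and Atp5f1e -0.08, -0.07 and -0.08, all with adjusted p of at least 0.58 by limma; with quantile normalization the sign of Atp5f1e turned at each day.

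The inhibitor Atp5if1, which stops ATP synthase from running in reverse, lay between 5.29 and 5.36 in the controls, 5.25 and 5.51 at Fe day 5, 5.34 and 5.43 at Fe day 15 and 5.29 and 5.44 at Fe day 30. The groups overlapped, with differences of 0.06, 0.05 and 0.03 (SE 0.064). The 9 other members of the stalks and membrane part had medians of 0.02, 0.05 and 0.0062. The highest of them at Fe day 30 was Atp5pd of the peripheral stalk, at 4.71, 4.63, 4.29 and 4.75 against 4.40, 4.46, 4.52 and 4.49 in the controls, a difference of 0.12 (SE 0.096, adjusted p = 0.73 by limma) with 1 low array.

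With all 16 arrays, complete separation of a group from the controls was most frequent at Fe day 15. There 12 members (17.9%) did not overlap the controls, against 9.84% of all features. Of these, 9 were higher (13.4%, against 4.11%), namely Ndufv1, Ndufv2, Ndufab1, Ndufb10, Uqcrh, Cox7a2, Atp5f1b, Atp5pf and Atp5po, by 0.06 to 0.14. The other three, Ndufb8, Ndufaf4 and Atp5pb, were lower (4.48%, against 5.73%). None of the 12 had an unadjusted p under 0.05. The count depends on the scaling: with the array median in place of the 75th percentile it was 1 higher and 3 lower (5.97%, against 8.60%), and with quantile normalization 9 higher (13.4%, against 4.21%) and 1 lower. At Fe day 5, 3 members did not overlap (4.48%, against 7.84%), Ndufb2 higher and Ndufv3 and Uqcr11 lower. At Fe day 30, Cox5a, Ndufb8 and Uqcr11 were lower (4.48%, against 6.25%). The direction at these days also turned with the scaling. With quantile normalization 9 members were higher and 0 lower at Fe day 5 (13.4%, against 7.75%), and 7 were higher and 1 lower at Fe day 30 (11.9%, against 6.74%). With normexp background they were 6 higher and 0 lower (8.96%, against 7.20%), and 5 higher and 1 lower (8.96%, against 6.28%). The number of higher members was thus 9 at both Fe day 5 and Fe day 15 with quantile normalization. The blood marker score was above all controls on the 4 arrays of Fe day 15 and the 4 of Fe day 5. The summed blood level overlapped the controls at both days. The part of blood in these counts was not tested. Without Fe day 5 replicates 2 and 3 and Fe day 30 replicate 3, which leaves 2 and 3 arrays, 24 members were higher and 3 lower at Fe day 5 (40.3%, against 23.9%) and 7 higher and 3 lower at Fe day 30 (14.9%, against 10.5%).

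The Fe days were also compared with one another. No member was called at an adjusted p under 0.05 by limma at Fe day 15 against Fe day 5 (0% of features), Fe day 30 against Fe day 15 (0%) or Fe day 30 against Fe day 5 (0%). The unadjusted counts were 1 member (7.20% of features), 0 (6.49%) and 1 (2.96%). The first was Uqcrc2, a core protein of complex III, at 4.65, 4.63, 4.53 and 4.70 at Fe day 5 and 4.33, 4.60, 4.42 and 4.36 at Fe day 15. The groups overlapped on 1 array, and the difference was -0.20 (SE 0.080, adjusted p = 0.60 by limma). The other was Cox6b2, higher at Fe day 30 than at Fe day 5 by 0.39 (SE 0.18, adjusted p = 1.00). Ndufv1 was lower at Fe day 30 than at Fe day 15 by a log2 difference of -0.14 (SE 0.073, adjusted p = 0.78 by limma), with the groups not overlapping. Uqcrh and Ndufb5 were the other two that did not overlap in that comparison (4.48% of members, against 3.29% of features). Between Fe day 15 and Fe day 5, 1 member, Atp5mc2 of the rotor ring, did not overlap (3.71% of features), and between Fe day 30 and Fe day 5 there were 0 (1.52% of features).

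The score of an array for the 67 members, taken as for the marker lists, was 0.04, -0.02, 0.0022 and -0.01 in the controls. It was 0.05, 0.02, -0.12 and 0.10 at Fe day 5, 0.04, 0.05, 0.04 and -0.04 at Fe day 15 and 0.03, -0.03, -0.09 and 0.04 at Fe day 30. Every group overlapped the controls. The lowest scores belonged to Fe day 5 replicate 3 and Fe day 30 replicate 3, which were also the 2 arrays with the highest choroid plexus scores (3.41 and 6.88). Fe day 5 replicate 2, with a choroid plexus score of 1.78 and the highest meningeal score (4.45), lay inside the control range at 0.02. The part of those cells in the scores was not tested. Without Fe day 5 replicate 3 the median difference of the members at Fe day 5 rose from 0.0096 to 0.06. The number of members with an unadjusted p under 0.05 then went from 1 to 8 (5 higher), or 11.9% against 14.0% of all features in the same fit. Without all 3 arrays rich in choroid plexus or meningeal markers, which leaves 2 arrays at Fe day 5, the median was 0.08. In that fit 8 members had an unadjusted p under 0.05 (11.9%, against 8.95% of all features). All 8 were higher, against 4.11% of features, and 0 members were called. Within slides the median of the members, Fe minus control, was 0.07 for Fe day 5 replicate 4, 0.05, 0.04 and 0.05 for Fe day 15 replicates 1 to 3, and -0.05 and 0.04 for Fe day 30 replicates 3 and 4.

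**Figure D3:**
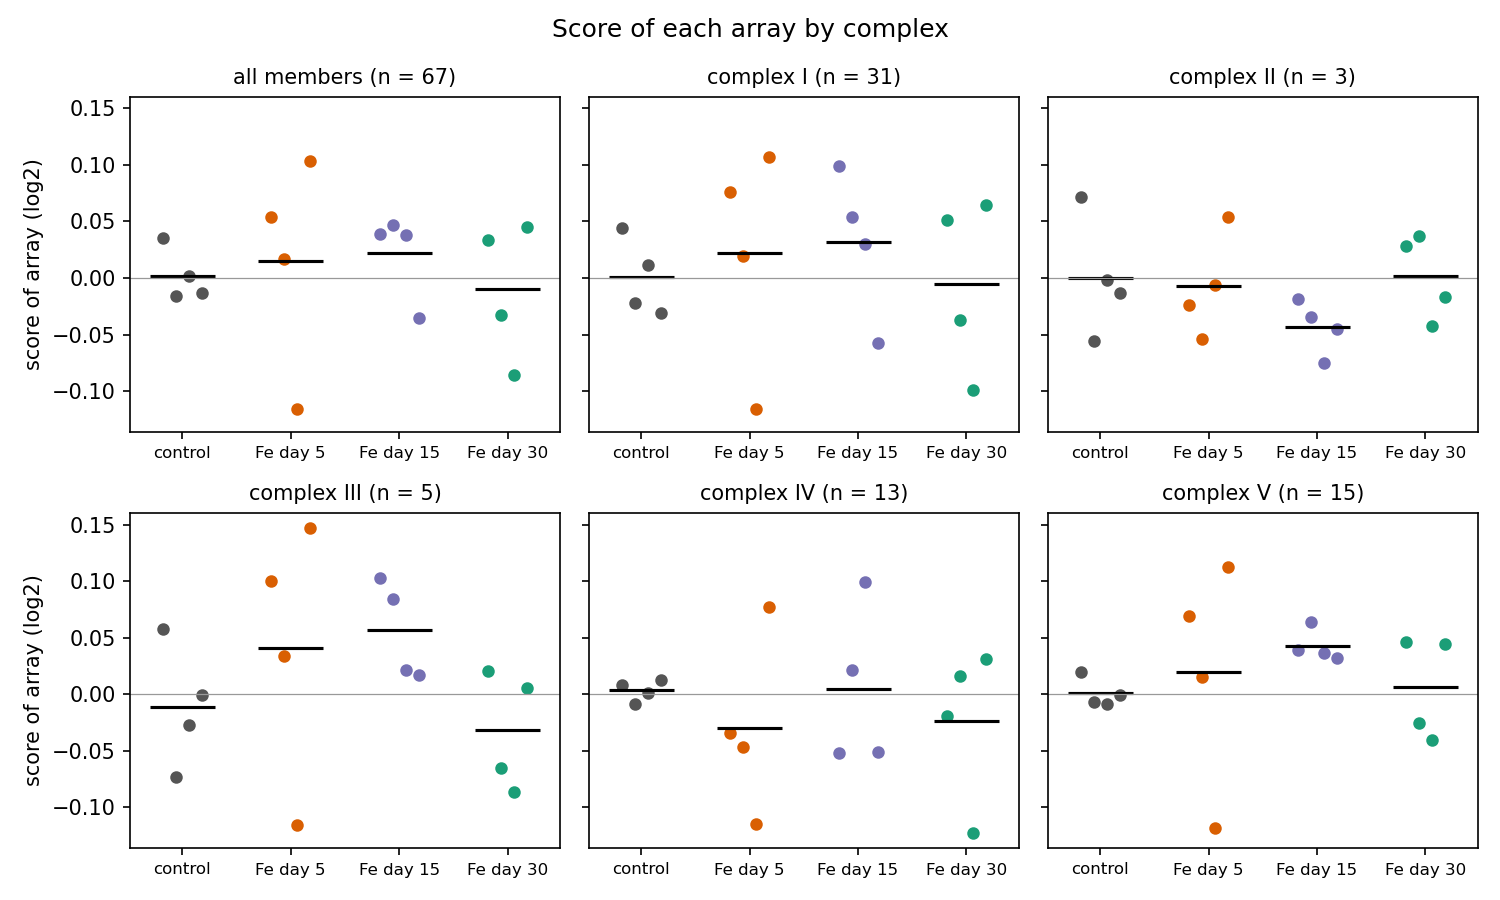
Score of each array (vertical axis, log2; median difference of its genes from their control means) for all members and for complexes I to V in the 4 groups; points are arrays and bars group means. Controls lie between -0.02 and 0.04 for all members, and the lowest point, Fe day 5 replicate 3, lies at -0.12.

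By complex, the same array was lowest at Fe day 5 in complexes I, III, IV and V, at -0.12, -0.12, -0.11 and -0.12. Scores of complex V at Fe day 15 ran from 0.03 to 0.06, above the controls at -0.0088 to 0.02. Scores of complex II at Fe day 15 ran from -0.08 to -0.02 and overlapped the controls at -0.06 to 0.07. Complex IV scores had the narrowest control range, -0.0084 to 0.01, and ran from -0.11 to 0.08 at Fe day 5 and -0.12 to 0.03 at Fe day 30. Complex III ran from 0.02 to 0.10 at Fe day 15 and from -0.09 to 0.02 at Fe day 30, against -0.07 to 0.06 in the controls.

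**Figure D4:**
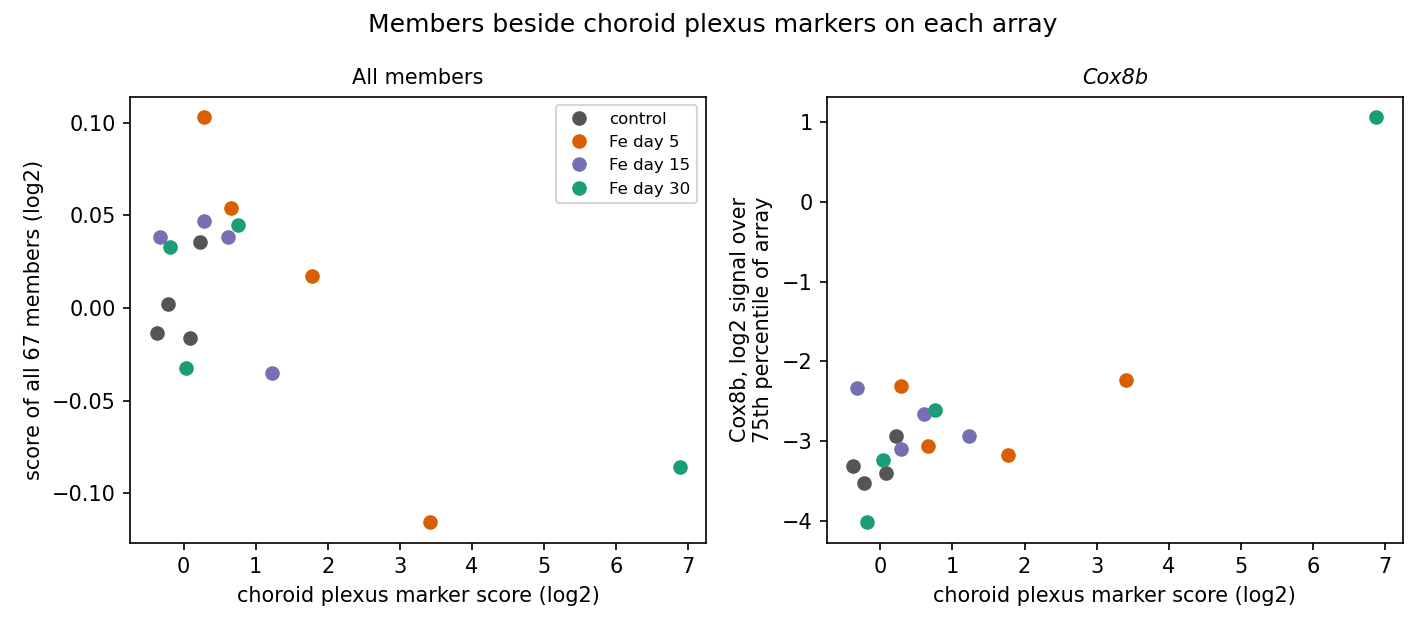
Score of all 67 members (left) and log2 signal of Cox8b (right) on each array against the choroid plexus marker score of the same array, coloured by group. The 2 arrays with the highest choroid plexus scores (3.41 and 6.88) have the lowest member scores, and the array at 6.88 has the highest Cox8b value, 1.07. The array at 1.78 (Fe day 5 replicate 2) has a member score of 0.02, inside the control range.

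Genes around the respiratory chain were counted in 6 lists, and 0 of them were called by limma at any Fe day. The genes named are among those of lowest p in their list. Of all features, 10.3% at Fe day 5, 11.5% at Fe day 15 and 7.77% at Fe day 30 had an unadjusted p under 0.05. Assembly factors outside the Nduf names (22 of 41 measured) had medians of -0.04, -0.03 and -0.04, with 1 gene at an unadjusted p under 0.05, Cox15 of heme A synthesis, at -0.27 (SE 0.10, adjusted p = 0.47) at Fe day 5. Electron carriers and coenzyme Q synthesis (17 of 20) had medians of -0.08, -0.0086 and -0.03, with Coq8b, a coenzyme Q synthesis factor, at -0.21 (SE 0.070, adjusted p = 0.47) at Fe day 5 and Etfa, which feeds electrons from fatty acid oxidation, at -0.22 (SE 0.099, adjusted p = 0.42) at Fe day 15. The tricarboxylic acid cycle with pyruvate dehydrogenase (16 of 18) had medians of 0.02, -0.01 and -0.02, with fumarase, Fh, at 0.23 (SE 0.087, adjusted p = 0.36) at Fe day 15.

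Nuclear regulators of mitochondrial genes (16 of 18) had medians of -0.04, -0.0020 and -0.02. The coactivator Ppargc1a gave 0.28 (SE 0.14, adjusted p = 0.48) at Fe day 5 and its relative Ppargc1b 0.35 (SE 0.12, adjusted p = 0.34) at Fe day 15, while Gabpa, the ETS factor of the motif above, gave -0.15 (SE 0.080, adjusted p = 0.47) at Fe day 15. Mitochondrial carriers and outer membrane proteins (20 of 21) had medians of -0.0086, 0.0050 and -0.05, with the uncoupling protein Ucp2 at -0.64 (SE 0.27, adjusted p = 0.47) at Fe day 5 and Chchd3, a protein of the cristae junctions, at -0.18 (SE 0.063, adjusted p = 0.33) at Fe day 15. Glycolysis (19 of 21) had medians of -0.01, 0.08 and 0.02, and the genes with the lowest p at Fe day 15 were Ldhb at 0.20 (SE 0.076, adjusted p = 0.37) and Pkm at 0.17 (SE 0.076, adjusted p = 0.42).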

How the data were processed

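RNA from the right hippocampus of 16 rats was hybridised to 16 Agilent 1-colour arrays on 7 slides. Images were read with Agilent Feature Extraction 9.5, per the submitters' processing notes. The values used were the linear processed intensities of the deposited scanner files, from which, per the file headers, background and a spatial trend had been removed. The intensities of the deposited series table matched them in 100% of entries at a relative tolerance of 1e-06, with column medians of 65.1 to 108, so it was not a separate alternative.

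Signals were placed on a log2 scale, and each array's 75th percentile was subtracted. Marked outlier spots were left out, and the spots of a probe were averaged. Probes were named through RefSeq accessions and a RefSeq gene table (GRCr8, used for names), which matched 15080 of 16116. The brightest probe of a gene was used. Probes without a symbol were kept under the identifier in the files, which gave 26565 features, 9588 with a symbol. A model with 1 mean for each group was fitted to all 16 arrays by limma 3.58.1 (R 4.3.3), with 12 residual degrees of freedom and two-sided tests, with Benjamini-Hochberg adjustment over all features. The fit was tested on simulated data. The number of arrays limits the precision. With 1 array for each rat, p-values reflect differences between rats together with those between arrays and slides. The main model held no term for slide or position.

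The members and lists were chosen with earlier results of these data known, as were the bounds of 1.3-fold and 1.5-fold. Members were named by a rule: core subunits, alternative isoforms, and those of lowest p in each complex and comparison; for related lists, those of lowest p. Members counted for not overlapping or for several probes were named after their values were seen. On its own, 1 member is not reported here; it stays in the fit and the counts. Alternatives were other scalings, background corrections, filters, probe rules, slide and replicate blocks, array weights, a trended prior, fits of 2 groups, and leaving out arrays. Shared replicate numbers did not pair the rats.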

Additional observations from a re-analysis of the deposited data

Results flagged for a closer look

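In 100 groups of 4 arrays (24 named members and the score of all members, in each of the 4 groups), 4 had 1 array far from the other three by Dixon's test at the 95% level. Chance flags about 1 in 20 such groups, so 4 of 100 is near that rate.

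Atp5f1b, the catalytic subunit of ATP synthase, was lowest in Fe day 15 replicate 1 at 4.32 (4.3247), with the others at 4.43 to 4.44. The score of all members was lowest in Fe day 15 replicate 4 at -0.04 (-0.0351), with the others at 0.04 to 0.05, and this array had the highest microglia marker score of its group, 1.04. Atp5f1a, of the same F1 head, was highest in Fe day 30 replicate 1 at 4.72 (4.7235), with the others at 4.48 to 4.51. Uqcrc2, a core protein of complex III, was lowest in Fe day 30 replicate 3 at 4.32 (4.3163), with the others at 4.55 to 4.59, and this array had the highest choroid plexus score, 6.88. The part of those cells in either value was not tested.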

How the results depend on the processing

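Under 30 alternatives the number of members called by limma stayed at 0 in all 6 comparisons, as did that of the F-test in the 29 where it was run, and members with intervals within 1.5-fold of control numbered 64 to 67. The median difference of the members had no fixed sign at Fe day 5 and Fe day 30. At Fe day 5 it was 0.0096, against 0.0729 with normexp background and quantile normalization, 0.0772 without the 3 arrays rich in choroid plexus or meningeal markers, and -0.01 with the array median as scale. Leaving out 1 array at a time gave -0.01 to 0.06 at Fe day 5, 0.02 to 0.05 at Fe day 15 and -0.02 to 0.02 at Fe day 30. With the array median as scale it was 0.02 at Fe day 15 and -0.04 at Fe day 30, and with quantile normalization 0.06 and 0.05. Members at an unadjusted p under 0.05 at Fe day 5 numbered 1 (1.49%, against 10.3% of features), 8 with quantile normalization (11.9%, against 10.5%) and 13 with normexp (19.4%, against 10.6%). Of these, 0, 8 and 12 were higher. That was 0%, 11.9% and 17.9% of members, against 4.06%, 3.71% and 3.84% of features. The cause was not tested.

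Replicate numbers did not pair the rats: residuals of same-numbered arrays correlated at -0.41 to 0.39 (median -0.04, 5 of 24 over 0.1). With the replicate block the medians were 0.0096, 0.036 and -0.0019, with 0 members called. With slide as a fixed block they were 0.05, 0.05 and 0.04. Of 2160 values of named members under alternatives, 0 crossed the threshold and 125 changed sign, none of them called. The count of complex I with Ndufa4 could not be run, since no probe was matched to it. The spread between arrays of Cox8b and Cox6b2 (residual SD 1.17 and 0.27) and 4 arrays a group limit what could be seen. For Cox8b the SD was 2.25 at Fe day 30 and at most 0.50 in the other groups.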
